A study of Rattus norvegicus with 34 samples.

Results

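DNA methylation in sperm of F2 males of the ifosfamide lineage was compared with that of F1 control males over every autosomal window of 1000 bases. All windows on chromosomes 1 to 20 were taken, 2618741 of the 2782040 in the table, and 12 of the 34 libraries in the labels, 6 pools a side. The study gave pubertal F0 males ifosfamide or saline, bred 2 generations from them without further exposure, and profiled sperm by methylated DNA immunoprecipitation and sequencing (MeDIP-seq). The question is whether sperm methylation differs in a generation whose own germ cells were never exposed.

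All animals were outbred Sprague Dawley SD (Harlan) rats, and both groups are sperm from the cauda epididymis with somatic cells removed by sonication and washing. F1 control males descended from 3 founders given phosphate-buffered saline at 1.1 mL/kg on days 26, 29 and 32 of age. F2 ifosfamide males descended from 5 founders given intraperitoneal ifosfamide at 8.5 mg/kg on days 26, 29 and 32 of age. A control library pooled 3 to 4 males out of 25 listed. An F2 library pooled 8 to 9 males, so that 6 pools would need 48 to 54, more than the 43 listed, and whether pools share males or litters is not stated. The p-values below therefore describe these pools, and not males or litters. The window test by edgeR also draws its variance estimate partly from other windows. Its p-values thus do not reflect the spread of a window's own pools alone. Age at sperm collection is not given in the sources used here. Lineage, generation, founders and pool size all differ between the groups and cannot be told apart. Sperm of F2 control males was not analysed here. The counts of 6 F1 ifosfamide pools of 3 to 4 males are set beside some results as values only. No gene names or sequences are given, because no annotation or genome of the Rnor_6.0 build was at hand, and markers of sperm or of other cells were not checked for the same reason.

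Methylation of cytosine in CpG dinucleotides is laid down anew in male germ cells after an earlier erasure, and mature sperm carry a highly methylated genome with unmethylated CpG-rich promoters. Ifosfamide is an alkylating prodrug that liver enzymes turn into a DNA cross-linking mustard. In MeDIP-seq an antibody against 5-methylcytosine pulls down single-stranded fragments. The signal of a window thus depends on how many of its cytosines are methylated, on how many CpGs it holds and on how many copies of it the genome carries, and outbred lineages can differ in the last of these.

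Control libraries held 23336048 to 34051679 window counts and F2 ifosfamide libraries 27424144 to 36309987, of which 97.0% to 97.2% were autosomal. The median autosomal window had 5 to 8 counts in a library. Signal is given as CPM, a window's counts scaled to a common library total, with mean ± SD over 6 pools.

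By the measure given next, pools of a group were not always each other's nearest. The chi-square per degree of freedom between 2 pools' window counts, which is 1 for sampling noise alone, was 1.11 to 1.42 for pairs of control pools, 1.05 to 1.30 for pairs of F2 pools and 1.08 to 1.56 for pairs across the groups. F2 pool 1, the deepest library, differed from F2 pools 3 to 6 at 1.27 to 1.30 but from control pools 2 and 5 at only 1.13 and 1.12. Control pool 4, the shallowest library, differed from control pool 1 at 1.40 but from F2 pools 2 and 4 at only 1.08 and 1.12. For a given difference this measure grows with the counts, so pairs of unlike depth are not compared on equal terms. No pair differed by less than sampling noise, but this cannot show whether pools share males. All 12 pools were treated as separate replicates, and results that turn on a single pool are given with and without it.

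Few windows changed. By edgeR's quasi-likelihood test, 279 of 901754 autosomal windows with enough counts differed between F2 ifosfamide and F1 control sperm at a Benjamini-Hochberg adjusted p below 0.05 (0.0309% of those tested). Of these, 166 were higher (0.0184%) and 113 lower (0.0125%) in F2 ifosfamide sperm. At an unadjusted p below 0.05 there were 84907 windows, 41426 higher and 43481 lower. This is more than the share of 0.05 of tested windows that would be found without any difference. Its cause was not tested, and windows not called are not thereby shown to be unchanged. Over all tested windows the log2 fold change had a median of -0.00063, with 5th and 95th percentiles of -0.40 and 0.40 and a median standard error (SE) of 0.207. Only 218 tested windows had a log2 fold change beyond 1 in either direction.

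The called windows changed by a median log2 fold change of 0.79 for those higher and -0.87 for those lower. The higher ones spanned 0.51 to 1.86 and the lower ones -1.49 to -0.56, and 42 and 34 of them changed more than 2-fold. Windows that rose had a median signal of 1.10 CPM in controls and 1.91 CPM in F2 ifosfamide pools, beside 1.26 CPM in F1 ifosfamide pools. Windows that fell had 1.12 CPM in controls, 0.614 CPM in F2 ifosfamide and 1.01 CPM in F1 ifosfamide pools. Called windows had more signal than most, since the median tested window had 0.609 CPM in controls.

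The 6 F2 pools lay wholly outside the control range in 45 of the 166 higher and 55 of the 113 lower windows. Across all tested windows, the F2 pools lay wholly above the controls in 0.241% and wholly below in 0.233%.

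The 8 non-overlapping windows with the lowest p among those that rose lay on 7 chromosomes and had 0.220 to 1.31 CPM in controls. At chr9:11763001-11764000 the controls had 0.294 to 0.616 CPM (median 0.428) and the F2 ifosfamide pools 0.633 to 1.57 CPM (median 0.975). The log2 fold change was 1.30 ± 0.20 (SE, adjusted p = 0.000165). F2 pools 2 and 5 were the high ones, at 1.57 and 1.50 CPM, and pool 1 lay just above the highest control. The F1 ifosfamide pools spread from 0.196 to 2.06 CPM there and covered the range of both groups.

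At chr2:198036001-198037000 the controls had 0.510 to 1.09 CPM (median 0.972) and the F2 ifosfamide pools 1.40 to 2.05 CPM (median 1.82), a log2 fold change of 0.90 ± 0.15 (SE, adjusted p = 0.00115). Control pool 1 stood below the other 5 controls, which had 0.938 to 1.09 CPM. F1 ifosfamide pools had 0.588 to 1.16 CPM, about the level of the controls.

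The window with the largest fold change of these 8 was chr5:130854001-130855000, where control pools had 0.154 to 0.294 CPM and F2 ifosfamide pools 0.464 to 0.839 CPM. Its log2 fold change was 1.46 ± 0.26 (SE, adjusted p = 0.00205), on a total of 154 counts over 12 libraries. The F1 ifosfamide pools had 0.224 to 0.487 CPM and overlapped both groups.

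At chr3:145670001-145671000 the controls had 0.270 to 0.675 CPM and the F2 ifosfamide pools 0.874 to 1.38 CPM, a log2 fold change of 1.10 ± 0.19 (SE, adjusted p = 0.00205). F1 ifosfamide pools, at 0.420 to 1.28 CPM, overlapped both. At chr7:145591001-145592000 the controls had 0.157 to 0.423 CPM and the F2 ifosfamide pools 0.606 to 0.894 CPM, a log2 fold change of 1.30 ± 0.23 (SE, adjusted p = 0.00331). This window belongs to the longest run of called windows, described below.

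The other 3 had higher signal. At chr12:37715001-37716000 control pools had 0.963 to 1.48 CPM, F2 ifosfamide pools 1.57 to 2.99 CPM and F1 ifosfamide pools 0.783 to 1.50 CPM. At chr7:61898001-61899000 control pools had 0.706 to 1.50 CPM and F2 ifosfamide pools 1.53 to 2.55 CPM, and F1 ifosfamide pools, at 1.69 to 2.30 CPM, were all above the controls as well. At chr8:131833001-131834000 control pools had 0.784 to 1.54 CPM, F2 ifosfamide pools 1.542 to 2.37 CPM and F1 ifosfamide pools 0.912 to 1.28 CPM. The lowest F2 pool and the highest control all but touched in this last window. Adjusted p was 0.00354, 0.00561 and 0.00879 in these windows. Without F2 pool 5 the calls at chr12:37715001 and chr7:61898001 narrowly missed the threshold, with adjusted p of 0.051 and 0.054, and the call at chr8:131833001 was lost without F2 pool 3 or pool 5.

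**Figure D1:**
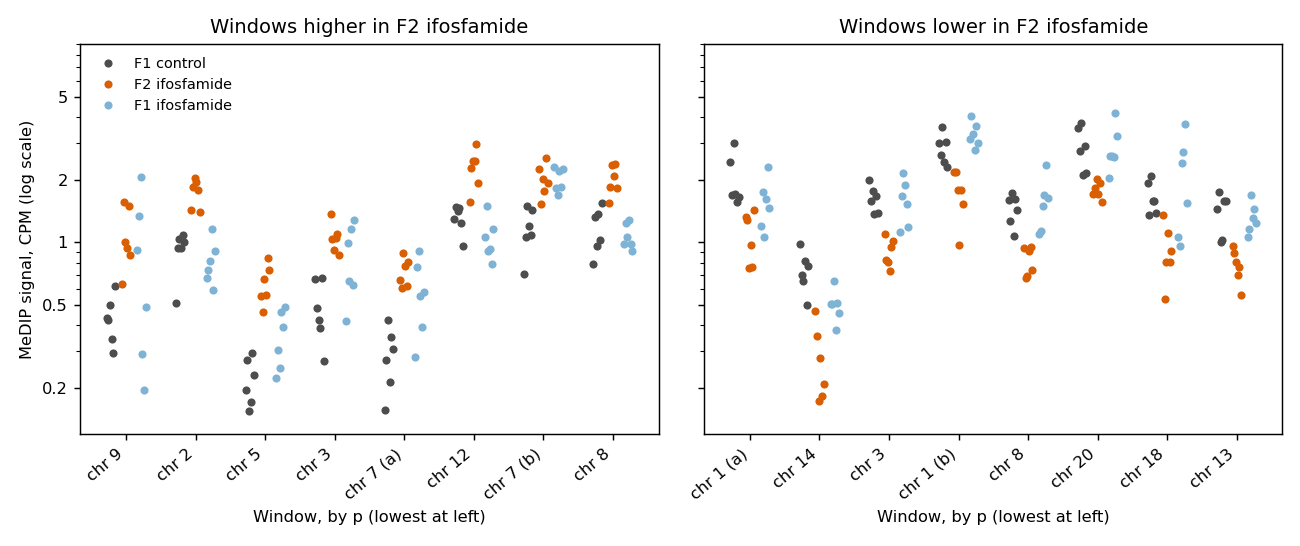
MeDIP signal (CPM, log scale) of each pool in the 8 higher and 8 lower called windows with the lowest p whose F2 ifosfamide and F1 control pools do not overlap; each point is a pool, and windows are labelled by chromosome, with a and b where a chromosome has more than 1. The rule selects windows in which the F2 ifosfamide and control points separate, whereas the F1 ifosfamide points, not used in the rule, lie at the control level in some windows, at the F2 level on chromosome 7 (b), and across both on chromosome 9.

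Among windows that fell and whose groups did not overlap, the lowest p was at chr1:55649001-55650000. Controls had 1.56 to 3.00 CPM (median 1.70) and F2 ifosfamide pools 0.750 to 1.43 CPM (median 1.13), a log2 fold change of -0.87 ± 0.15 (SE, adjusted p = 0.00213). Control pools 1 and 3 were the high ones, at 2.43 and 3.00 CPM, and without control pool 3 the adjusted p was 0.054. A second window on this chromosome, chr1:56026001-56027000, had 2.31 to 3.58 CPM in controls, 0.975 to 2.18 CPM in F2 ifosfamide pools and 2.79 to 4.06 CPM in F1 ifosfamide pools.

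The deepest fall of these 8 was at chr14:59629001-59630000. The controls had 0.499 to 0.980 CPM (median 0.733) and the F2 ifosfamide pools 0.173 to 0.468 CPM (median 0.244), a log2 fold change of -1.35 ± 0.24 (SE, adjusted p = 0.00250). F1 ifosfamide pools had 0.377 to 0.656 CPM and overlapped both groups. The 2 tested windows that start 2 kb away on each side had log2 fold changes of 0.17 and 0.17, so the fall did not extend to them.

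At chr3:169329001-169330000 the controls had 1.37 to 2.00 CPM, the F2 ifosfamide pools 0.731 to 1.10 CPM and the F1 ifosfamide pools 1.12 to 2.15 CPM, a log2 fold change of -0.85 ± 0.15 (SE, adjusted p = 0.00354). At chr8:75574001-75575000 the controls had 1.07 to 1.73 CPM, the F2 ifosfamide pools 0.678 to 0.948 CPM and the F1 ifosfamide pools 1.09 to 2.35 CPM. At chr20:8052001-8053000 the controls had 2.10 to 3.73 CPM, the F2 ifosfamide pools 1.57 to 2.02 CPM and the F1 ifosfamide pools 2.04 to 4.19 CPM. In each of these 3 windows the 6 F1 ifosfamide pools lay above all 6 F2 ifosfamide pools.

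At chr18:40877001-40878000 the controls had 1.36 to 2.08 CPM, the F2 ifosfamide pools 0.535 to 1.35 CPM and the F1 ifosfamide pools 0.963 to 3.72 CPM. At chr13:100666001-100667000 the controls had 1.00 to 1.76 CPM, the F2 ifosfamide pools 0.559 to 0.964 CPM and the F1 ifosfamide pools 1.06 to 1.69 CPM. Log2 fold changes at chr1:56026001, chr8:75574001, chr20:8052001, chr18:40877001 and chr13:100666001 were -0.68 to -0.85 (adjusted p = 0.00907 to 0.0103), and each of these calls was lost without some single pool. Control pool 3 was such a pool at chr1:56026001, chr20:8052001 and chr18:40877001, and control pool 2 at chr13:100666001. F2 pool 4 was one at chr1:56026001 and chr13:100666001, F2 pool 6 at chr20:8052001 and chr13:100666001, F2 pool 3 at chr8:75574001 and chr18:40877001, and F2 pool 2 at chr18:40877001.

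The lowest p-values of the whole comparison came from windows in which the F2 pools themselves split, and these windows were chosen after their values were seen. At chr2:155784001-155785000 F2 ifosfamide pools 3 to 6 had 5.68, 6.76, 4.96 and 5.45 CPM, whereas F2 pools 1 and 2 had 1.93 and 2.35 CPM. The 6 control pools had 0.863 to 2.36 CPM and F1 ifosfamide pools 0.687 to 1.94 CPM, so F2 pools 1 and 2 lay within the control range. The log2 fold change was 1.39 ± 0.15 (SE, adjusted p = 8.67e-10). Mean signal was 1.72 ± 0.534 CPM (SD, n = 6) in controls and 4.52 ± 1.94 CPM in F2 ifosfamide pools. The p-value, with variance drawn partly from other windows, understates that wide F2 spread.

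At chr9:103428001-103429000 F2 pools 3 to 6 had 7.53, 8.74, 7.37 and 8.21 CPM, F2 pools 1 and 2 had 3.00 and 3.92 CPM, and controls had 2.00 to 4.00 CPM. At chr8:7027001-7028000 F2 pools 3 to 6 had at least 1.28 CPM, F2 pools 1 and 2 at most 0.523 CPM and controls at most 0.616 CPM. All 3 windows remained called with each pool left out in turn.

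Among the 166 windows that rose, 48 had exactly 4 F2 pools above every control pool. In 31 of these 48 (64.6%) the F2 pools left within the control range were pools 1 and 2, and each of the other 14 possible pairs accounted for at most 4 windows. Of all 26332 tested windows with exactly 4 F2 pools above the controls, pools 1 and 2 were the remaining pair in 4322 (16.4%). Among windows that fell, pools 1 and 2 were the remaining pair in 3 of 14 (21.4%), beside 3287 of 24078 tested windows (13.7%). These counts are a description without a test. F2 pool 1 was the F2 pool nearest to the controls in 89 of the 166 higher windows (53.6%) and 45 of the 113 lower windows (39.8%). F2 pool 2 was nearest in 39 higher windows (23.5%) and 18 lower windows (15.9%). The share over all tested windows was not computed for the nearest pool, so whether these values are particular to called windows is not known. In all tested windows with exactly 4 F2 pools above the controls, each pair with pool 1 made up 8% to 16.4%. Each pair without it made up at most 6.09%. With 4 F2 pools below the controls, these were 9.04% to 13.7% and at most 5.46%.

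Leaving out F2 pool 1 raised the number of autosomal windows called from 279 to 1457, 760 higher and 697 lower, and 272 of the 279 were among them. Without control pool 4 it was 710, and without control pool 6 it was 755. Leaving out any of 8 other pools lowered the number to between 71 (F2 pool 3) and 172 (control pool 1), and without F2 pool 2 it was 220. In all 12 of these fits 31 windows were called, 27 higher and 4 lower, and in 7 of the 31 the groups did not overlap.

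**Figure D2:**
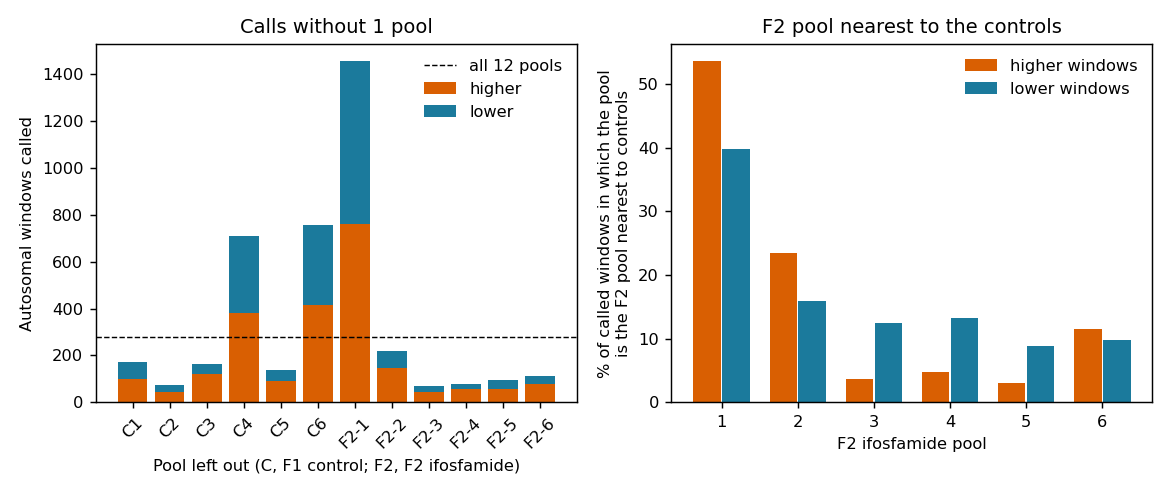
Left, number of autosomal windows called higher and lower when 1 pool is left out (bars; C, F1 control; F2, F2 ifosfamide), with the count from all 12 pools as a dashed line at 279. Right, percent of the 166 higher and 113 lower windows in which each F2 ifosfamide pool is the F2 pool nearest to the controls. The count rises to 1457 without F2 pool 1, the pool that is most often nearest to the controls in called windows. The share over all tested windows is not shown.

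Most calls stood alone. Grouped by direction with starts at most 100 kb apart, 220 called windows were single, 22 formed 11 pairs and 37 fell into 7 runs of at least 3. Runs held 34 windows that rose and 3 that fell. Tested windows that start 2 kb away from a higher window had a log2 fold change above 0 in 109 of 156 cases (69.9%, median 0.17), and those 2 kb from a lower window were below 0 in 80 of 128 (62.5%, median -0.07). Over all tested windows, 47.9% of such neighbours were above 0. The counts beside called windows include those in runs and do not exclude called neighbours, so they do not describe single windows alone.

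The longest run lay at chr7:145498001-145669000, where 11 windows were called higher over 171 kb. Of 43 tested windows in it, 40 had a log2 fold change above 0, with a median of 0.70, and those not called had a median of 0.60. Over all tested autosomal windows 49.9% were above 0. In this and the following runs the tested windows include the called ones that define the run, and adjacent windows share reads. Such counts are therefore a description and not independent support. Its summed signal was 31.7 ± 12.2 CPM (SD, n = 6) in controls, 51.8 ± 7.12 CPM in F2 ifosfamide and 49.6 ± 11.3 CPM in F1 ifosfamide pools. Control pools 3 and 5 had 46.8 and 47.2 CPM and the other 4 control pools 20.7 to 28.1 CPM, while F2 ifosfamide pools had 38.2 to 58.2 CPM. The controls thus held 2 levels, and the upper one lay within the F2 range. F1 ifosfamide pool 1, at 27.2 CPM, lay at the lower level and its other 5 pools, at 50.8 to 57.4 CPM, at the upper one.

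A second run on the same chromosome, chr7:145310001-145340000, had 3 called windows and repeated this order of pools. Control pools 3 and 5 had 10.2 and 10.7 CPM over it and the others 4.33 to 5.79 CPM, while F2 ifosfamide pools had 9.06 to 13.3 CPM. F1 ifosfamide pool 1 had 7.06 CPM and the other F1 ifosfamide pools 10.3 to 13.8 CPM. All 10 tested windows in this run had a log2 fold change above 0.

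The run with the most signal was chr14:46518001-46684000, where 8 windows were called higher and 135 of 144 tested windows had a log2 fold change above 0 (median 0.25). Control pools summed to 2247 to 3573 CPM (2843 ± 463, SD, n = 6), F2 ifosfamide pools to 2982 to 3647 CPM (3371 ± 245) and F1 ifosfamide pools to 3179 to 3716 CPM (3452 ± 210). Control pools 3 and 4, at 3573 and 3133 CPM, lay within the F2 range, and none of the 8 windows separated the groups. Control pool 6 was lowest, at 2247 CPM.

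At chr1:11928001-11967000, 4 windows were called higher and all 30 tested windows had a log2 fold change above 0 (median 0.31). Summed signal was 546 ± 39.6 CPM in controls, 665 ± 52.5 CPM in F2 ifosfamide and 653 ± 26.9 CPM in F1 ifosfamide pools. The lowest F2 pool, at 606.0 CPM, was just above the highest control, at 603.7 CPM. No single window of the 4 separated the groups, although the sum over the run did.

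At chr6:31050001-31062000, 4 windows were called higher and all 12 tested windows had a log2 fold change above 0 (median 0.44). Summed signal was 243 ± 32.8 CPM in controls, 325 ± 48.7 CPM in F2 ifosfamide and 286 ± 51.2 CPM in F1 ifosfamide pools. Control pool 1, at 297 CPM, was above F2 pools 4 and 6, at 288 and 262 CPM.

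The run at chr9:11750001-11764000 holds the chromosome 9 window described above. It had 4 called windows and all 6 tested windows had a log2 fold change above 0, with summed signal of 4.47 ± 1.29 CPM in controls, 8.31 ± 2.84 CPM in F2 ifosfamide and 7.76 ± 5.30 CPM in F1 ifosfamide pools. F1 ifosfamide pools 1 to 3 had 8.12 to 15.1 CPM and pools 4 to 6 had 3.19 to 3.53 CPM, so that group spread more widely than either of the others.

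The only run of lower windows was chr18:40877001-40880000, 3 adjoining windows that were all called. Summed signal was 5.60 ± 1.10 CPM in controls, 3.22 ± 0.762 CPM in F2 ifosfamide and 6.42 ± 2.84 CPM in F1 ifosfamide pools. Control pool 6, at 4.197 CPM, was below F2 pool 1, at 4.60 CPM, and all other F2 pools were below all controls.

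**Figure D3:**
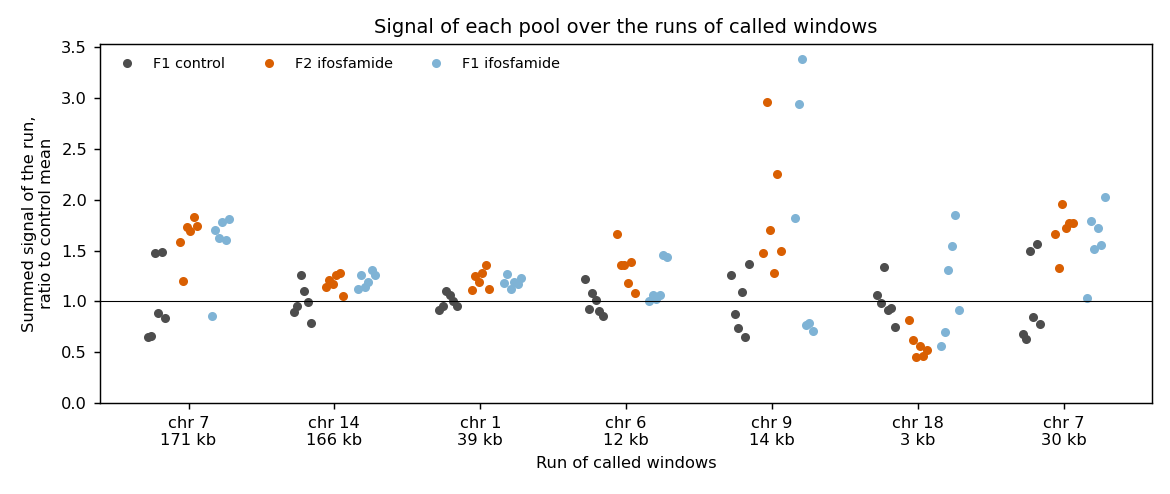
Summed MeDIP signal of each pool over the 7 runs of at least 3 called windows, as a ratio to the mean of the 6 F1 control pools (line at 1); points are pools, and runs are labelled by chromosome and length. Over both runs on chromosome 7 control pools 3 and 5 sit near the F2 ifosfamide pools and F1 ifosfamide pool 1 lies below the other F1 ifosfamide pools.

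The called windows with the highest signal that rose all lay in 3 of these runs. They were chr6:31050001-31051000 with 13.5 ± 3.00 CPM in controls and 20.4 ± 3.85 CPM in F2 ifosfamide pools, chr1:11928001-11929000 with 10.6 ± 0.854 and 15.5 ± 2.41 CPM, and chr14:46527001-46528000 with 10.3 ± 2.55 and 15.2 ± 3.03 CPM. The others were chr14:46683001-46684000 with 8.53 ± 2.98 CPM in controls and 13.8 ± 3.58 CPM in F2 ifosfamide pools and chr1:11966001-11967000 with 7.96 ± 3.17 and 14.3 ± 2.67 CPM. Control pools 3 and 4 were the 2 highest controls in 4 of these 5 windows, chr1:11928001 being the exception. Groups overlapped in all 5. The call at chr1:11966001 was lost only with DESeq2 in place of edgeR (adjusted p = 0.315), and the calls in the other 4 were lost under 6 to 13 of 21 alternative settings.

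Of the windows that fell, the highest signal was at chr2:49325001-49326000, with 6.92 ± 1.03 CPM in controls and 4.62 ± 1.71 CPM in F2 ifosfamide pools. F2 pool 1 had 8.07 CPM there, within the control range of 5.79 to 8.52 CPM, and the other 5 had 3.68 to 4.44 CPM. At chr18:3917001-3918000 the same pool stood apart, at 4.60 CPM against 2.40 to 3.18 CPM in the other F2 pools and 3.34 to 5.89 CPM in controls. The other 3 separated the groups. At chr19:20332001-20333000 controls had 2.87 to 4.54 CPM and F2 ifosfamide pools 2.24 to 2.73 CPM. At chr3:45694001-45695000 controls had 2.78 to 4.29 CPM and F2 ifosfamide pools 1.64 to 2.68 CPM. At chr7:63882001-63883000 controls had 2.46 to 3.55 CPM and F2 ifosfamide pools 1.98 to 2.37 CPM. Log2 fold changes in these 5 were -0.56 to -0.62 (adjusted p = 0.0187 to 0.0372), and each call was lost under 6 to 12 of 21 alternative settings.

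To see whether the difference depends on signal level, autosomal windows were ranked into 10 equal bins by the F1 ifosfamide pools, which are in neither group. No bin differed in its share of autosomal counts between the groups by an exact two-sided permutation test over all divisions of the 12 pools (0 of 10 at either an adjusted or an unadjusted p below 0.05). The lowest bin held 0.412 ± 0.062% of counts in controls and 0.372 ± 0.027% in F2 ifosfamide pools (SD, n = 6, exact permutation p = 0.128). Control pool 3, at 0.537%, lay far above the other controls, at 0.367% to 0.407%. The highest bin held 38.77 ± 0.61% in controls and 38.78 ± 0.38% in F2 ifosfamide pools (exact permutation p = 0.974).

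Ranking the windows by the control pools themselves gave another picture, with no test since the controls set the bins. F2 ifosfamide signal was then 1.36 times the control signal in the lowest bin and 0.996 times in the highest. The lowest bin was picked for low counts in the same controls that the ratio divides by. Such picking raises the ratio without any group difference, so it cannot show a shift at low control signal. The corresponding ratios were 0.900 and 1.000 under the ranking by F1 ifosfamide pools, so the excess at low control signal was not seen there. Those pools share the lineage of the F2 ifosfamide pools and the generation of the controls. That ranking need not be neutral either.

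**Figure D4:**
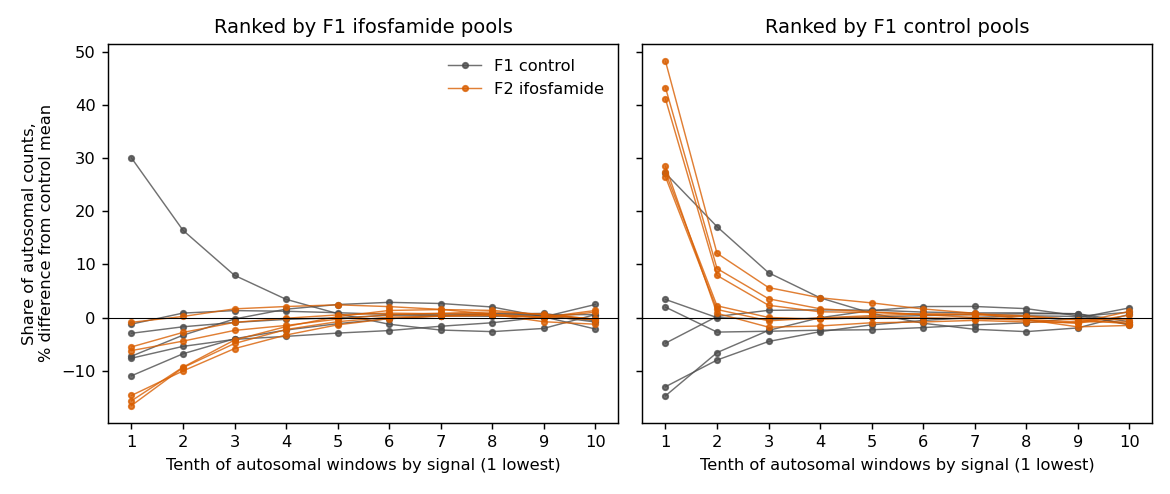
Share of autosomal counts in 10 equal bins of windows by signal, as percent difference from the control mean, with windows ranked by F1 ifosfamide pools (left) or by the control pools (right); each line is a pool. On the left the groups overlap in every bin and control pool 3 stands out in the lowest; on the right, where the controls set the ranking, the F2 ifosfamide pools lie higher in the lowest bin.

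Calls came mainly from the top of the range. Of the 10 bins ranked by F1 ifosfamide signal, the highest held 113 of the 166 higher and 68 of the 113 lower calls (0.0691% of its 261875 tested windows), whereas the next bin held 25 and 30 (0.021%). Above a mean of 5 CPM, a limit chosen after the values were seen, 22 windows were called higher and 1 lower out of 2103 (1.09%), with a median log2 fold change of 0.07. Offsets fitted by signal level brought these to 10 higher and 3 lower with a median of 0.01, so the size of the excess of higher calls there depends on the scaling. Higher calls still outnumbered lower ones in the alternatives run, with 12 and 0 by DESeq2 and 6 and 0 by limma. The highest 1% of windows took 9.93 ± 0.227% of counts in controls and 10.04 ± 0.207% in F2 ifosfamide pools, and the highest 0.1% took 3.60 ± 0.105% and 3.69 ± 0.119%, both smaller differences than the spread between pools.

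By position, no autosome differed in its share of autosomal counts after adjustment (0 of 20, exact two-sided permutation tests), and chromosomes 3, 14 and 17 had an unadjusted p below 0.05. Chromosome 3 held 6.50 ± 0.0120% of counts in controls and 6.48 ± 0.0157% in F2 ifosfamide pools (exact permutation p = 0.030, adjusted p = 0.26). Chromosome 17 held 3.546 ± 0.0103% and 3.533 ± 0.0085% (exact permutation p = 0.039, adjusted p = 0.26). Chromosome 14 held 4.447 ± 0.039% and 4.497 ± 0.030% (exact permutation p = 0.039, adjusted p = 0.26). Without the 166 kb run at chr14:46518001-46684000, chromosome 14 held 4.166 ± 0.0128% in controls and 4.164 ± 0.0079% in F2 ifosfamide pools, so the difference of the whole chromosome lay in that run.

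Called windows were spread over all 20 autosomes. Chromosomes 1 and 7 each had 20 higher and 10 lower calls, and chromosome 14 had 19 higher and 3 lower. Chromosome 17 had 6 lower and no higher calls out of 32703 tested windows (0.0183%). The share of tested windows called was between 0.0138% on chromosome 11 and 0.0599% on chromosome 19, beside 0.0309% overall. Distance to the chromosome end made no difference that passed the test (0 of 6 zones). The zone 1 to 2 Mb from an end held 1.389 ± 0.0092% of counts in controls and 1.399 ± 0.0060% in F2 ifosfamide pools (exact permutation p = 0.0498, adjusted p = 0.299).

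In bins of 1 Mb, 1 of 2629 autosomal bins was called (0.038%), and 304 had an unadjusted p below 0.05. Log2 fold changes of the bins were small, with 5th and 95th percentiles of -0.04 and 0.04, a median SE of 0.0155 and 19 bins beyond 0.1 in either direction. In bins of 100 kb none was called (0 of 26168, 0%), and 2936 had an unadjusted p below 0.05. For both bin sizes the unadjusted count exceeds a share of 0.05 of the bins tested. DESeq2 called 34 of the 1 Mb bins, 26 higher and 8 lower.

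The called bin was chr6:31000001-32000000, which contains the chromosome 6 run. Control pools had 736 to 858 CPM (785 ± 49.8, SD, n = 6) and F2 ifosfamide pools 860 to 1005 CPM (950 ± 52.2), a log2 fold change of 0.28 ± 0.04 (SE, adjusted p = 0.0107). The highest control, pool 3, and the lowest F2 pool, pool 6, were 858 and 860 CPM. The 20 of its 1000 windows with the largest excess, picked for that excess, held 91.8% of it and 65.6% of the control signal. Without the 1% of windows with the highest signal in the genome, its log2 fold change was 0.05 (adjusted p = 0.236). Leaving out each pool in turn gave log2 fold changes of 0.26 to 0.30 and adjusted p of 0.00147 to 0.0463.

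**Figure D5:**
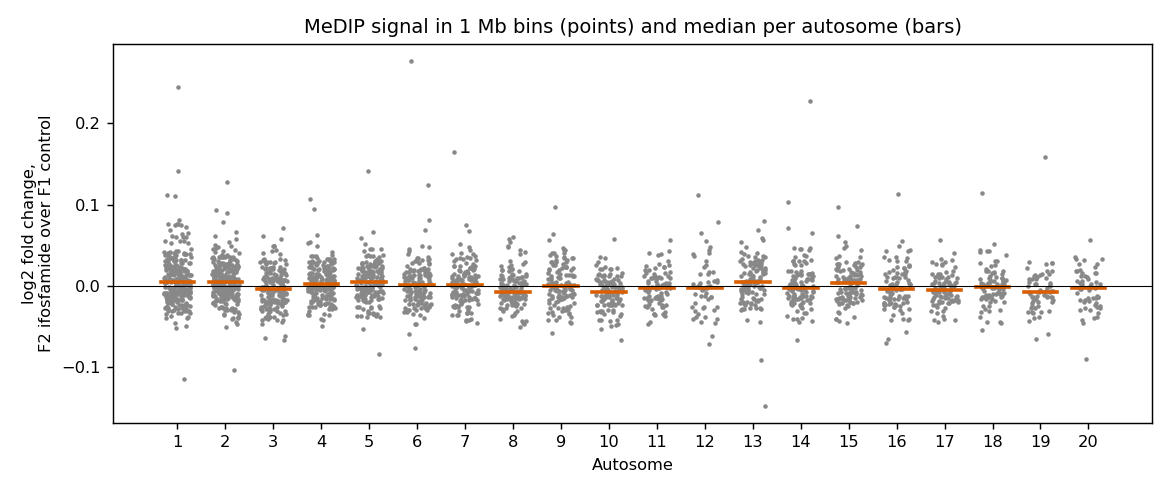
Log2 fold change of MeDIP signal, F2 ifosfamide over F1 control, in each 1 Mb bin (grey points) by autosome, with the median of each autosome (orange bars). Medians lie near 0 on every autosome, and the single called bin is the highest point, at 0.28 on chromosome 6.

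Log2 fold changes of single windows were little correlated beyond the reach of a fragment. Across windows of one table, which are not independent replicates, the log2 fold changes of adjacent windows correlated at r = 0.256 (517920 pairs), at a distance of 2 kb at r = 0.035 (431615 pairs), at 100 kb at r = 0.013 and at 1 Mb at r = 0.0055. Adjacent windows share reads, because the mean read fell in 1.16 to 1.23 windows. The median SE of a window's log2 fold change, 0.207, was large beside the 5th and 95th percentiles of -0.40 and 0.40. Such noise lowers r, so these values cannot show that regions were unlike. Among 1 Mb bins, some long stretches on chromosomes 1, 7 and 13, picked after their values were seen, kept the same sign. Likeness between neighbouring bins was not tested.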

How the data were processed

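Per the labels' protocols, MeDIP-seq was run on pooled sperm DNA. The submitters' processing notes name Trimmomatic, Bowtie2, SAMtools, FastQC and edgeR, and the Rnor_6.0 build, with no versions. The authors deposited read counts per 1000-base window, with RPKM, log2 fold changes and p-values, per the file headers. RPKM values deposited by the authors served only to recover read numbers. The authors' deposited log2 and p-value columns were used only for a check: in the authors' deposited table, adjusted p was below 0.05 in 203 autosomal windows, of which 133 were also called here, all 133 in the same direction.

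Counts were refitted with edgeR 4.0.16 in R 4.3.3, with TMM scaling (factors 0.992 to 1.008), filterByExpr with a minimum count of 10, and the two-sided quasi-likelihood test without covariates. Adjustment covered all 919249 windows tested, and autosomal windows are reported; 7 further calls lie outside the autosomes. CPM is not TMM-scaled. Shares were compared by exact permutation, whose smallest p is 0.0021645. The procedure was tested on simulated data. Alternatives used DESeq2 1.42.0, limma 3.58.1, other scalings and filters, and leaving out each pool.

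Windows are named by a rule: the 8 non-overlapping called windows of lowest p per direction, the 5 of highest mean CPM per direction, runs of at least 3 calls with starts at most 100 kb apart, and called 1 Mb bins. Others are said to be chosen after their values were seen. The members and lists were chosen with earlier results of these data known. Planned annotation classes and gene lists were left out, as no annotation of the build was at hand. The F1 control columns of both deposited tables are identical in all 6 libraries.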

Additional observations from a re-analysis of the deposited data

Results flagged for a closer look

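Of 140 groups of 6 pools that were checked for a pool far from the others, 7 had one; chance gives about 1 in 20 by Dixon's test. Control pool 3 accounts for 3 of them, with 0.537% of autosomal counts in the lowest of 10 bins of windows by signal (others 0.367% to 0.407%), 1.94% in the second lowest (others 1.56% to 1.68%) and 17.6% in the second highest (others 18.0% to 18.1%). F2 pool 1 accounts for 2, with 8.07 CPM at chr2:49325001 (others 3.68 to 4.44 CPM) and 4.60 CPM at chr18:3917001 (others 2.40 to 3.18 CPM). Control pool 1 had 0.510 CPM at chr2:198036001, where the other controls had 0.938 to 1.09 CPM. Control pool 6 had 2.83% of autosomal counts on chromosome 19, where the other controls had 2.87% to 2.89%.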

How the results depend on the processing

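None of the 26 windows named by rule changed direction under an alternative that tested it. They were picked as called in the same counts, many for groups that do not overlap. A reversal was thus hardly possible, and its absence is no support. The 279 autosomal windows called became 46 with a minimum count of 30 (22 higher, 24 lower, so that the balance turned to 47.8% higher), 27 with DESeq2 (20 higher, 7 lower), 58 with limma (40 higher, 18 lower) and 71 to 1457 with each pool left out, against 166 higher and 113 lower with all pools. A total of at least 12 counts gave 196 calls, 70.4% of them higher, against 59.5% in the main result; that share was 72.6% without control pool 3 and 74.7% without F2 pool 4. With the replicate block 691 windows (397 higher, 294 lower) and 2 bins of 1 Mb were called. Whether the pool numbers pair the groups is not known. Deviations of same-numbered pools correlated at -0.014 to 0.069, and only pools 1 and 4 correlated best with their own number. Counting noise in windows lowers such r, so these values cannot exclude a pairing. The single 1 Mb bin became 0 in bins of 100 kb, 0 without the 1% of windows with the highest signal, 34 with DESeq2, and 1 to 6 with each pool left out (6 without control pool 4 or F2 pool 1, 2 without control pool 2). Chromosome, end zone and signal level shares gave 0 calls under all alternatives run. Of the 26 named windows, 7 kept their call under every alternative that tested them, 5 lost it under 1 alternative and 14 under more. The cause of these changes was not tested. An edgeR fit by the earlier quasi-likelihood method, added after the data were seen, called 247 windows. The median window had 5 to 8 counts in a library, and the filter on low counts left 34.4% of autosomal windows to be tested; the detection limit at low signal was not measured.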
